A study of Arabidopsis thaliana with 8 samples.

Results

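OPCL1 and JMT are 2 genes of jasmonate metabolism, each measured by 1 of the 22746 probe sets tested. They were chosen by gene: a probe set was taken where the array annotation names OPCL1 (AT1G20510) or JMT (AT1G19640) as its single gene. Earlier results of these data were known when the genes were chosen. Both genes lie on chromosome 1 of Arabidopsis thaliana. The plants were of 2 genotypes in the ecotype Col-0, the wild type and dTLec1-1 (called dTLec here), a single line from the SALK collection of insertion mutants. After 2 days of cold at 4 °C in the dark as seed, all plants were kept at 21 °C with 10 h of light and 14 h of dark a day. They were 5 weeks old, and some rosette leaves of the wounded plants had been clamped with tweezers across the midvein. After 2 h, RNA was isolated from control and systemic leaves; systemic commonly means unwounded leaves on a wounded plant, and the labels leave unsaid whether control leaves were from unwounded plants. This gave 4 groups (wild-type control, wild-type systemic, dTLec control and dTLec systemic) with 2 arrays each and 8 arrays in all.

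Jasmonates are lipid-derived hormones that leaves make when they are wounded and that also appear in undamaged leaves of the same plant. Synthesis starts from a fatty acid in the plastid and ends in the peroxisome, where the side chain of a precursor is shortened by beta-oxidation. OPCL1 encodes the ligase that attaches coenzyme A to the precursor OPC-8:0, which admits it to beta-oxidation. JMT encodes the methyltransferase that turns jasmonic acid into its volatile methyl ester. The hormone is otherwise joined to isoleucine, which gives the form that the receptor perceives, or is removed by oxidation.

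The values are log2 expression values normalized between arrays by the authors, so 1 unit is a doubling. They ran from 3.24 to 14.28, with array medians from 5.82 to 5.87. Replicates of each group had r of 0.992 to 0.996 over the probe sets, a description, since probe sets are not independent. The file holds no detection calls, and values near the lower end of the scale can understate differences, which was not measured here. Whether replicates are separate plants or pools is not in the labels, so the spread behind the p-values is that between these arrays and may be technical. Of the leaf photosynthesis markers, 2 were measured by name. RCA, encoding Rubisco activase, had group means between 13.61 and 13.71, and LHCB4.2, encoding a light-harvesting protein, between 13.59 and 13.87. Of the root markers, PYK10 had group means between 4.27 and 4.29 and EXPA7 between 4.91 and 5.22, near the lower end. Levels of different probe sets cannot be set against each other, so these values show only where each marker lay on the scale. The lists of 7 flower and 6 seed markers had 0 genes measured by name. In whole leaves, a change in the number of cells that express a gene and a change in RNA per cell cannot be told apart.

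OPCL1 was highest in 1 of the 4 groups, the wild-type systemic leaves. The 2 wild-type control arrays read 8.03 and 7.95, and the 2 wild-type systemic arrays 8.69 and 9.06. The dTLec control arrays read 8.16 and 7.77, and the dTLec systemic arrays 7.82 and 7.91. Both wild-type systemic arrays thus lay above the other 6, among which the dTLec control arrays spanned the values of the other groups. The share of all probe sets with such a split was not counted, so the split is a description. The group means were 7.87 ± 0.07 (SD, n = 2) in dTLec systemic, 7.97 ± 0.28 in dTLec control, 7.99 ± 0.05 in wild-type control and 8.87 ± 0.26 in wild-type systemic leaves. Neighbours among the first 3 in this order did not differ beyond their spread.

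JMT differed over a wider range. The wild-type control arrays read 6.09 and 5.36, and the wild-type systemic arrays 8.33 and 8.83. The dTLec control arrays read 4.91 and 4.87, and the dTLec systemic arrays 6.46 and 6.73. No group overlapped another, which in a single comparison of 2 groups, taken in 1 direction, also held for 17.3% to 24% of all probe sets in the comparisons below. The order of the means was 4.89 ± 0.02 (SD, n = 2) in dTLec control, 5.72 ± 0.52 in wild-type control, 6.60 ± 0.19 in dTLec systemic and 8.58 ± 0.35 in wild-type systemic leaves. The dTLec control level lay near the lower end of the scale, and the wild-type control replicates lay farther apart than those of the other groups.

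**Figure D1:**
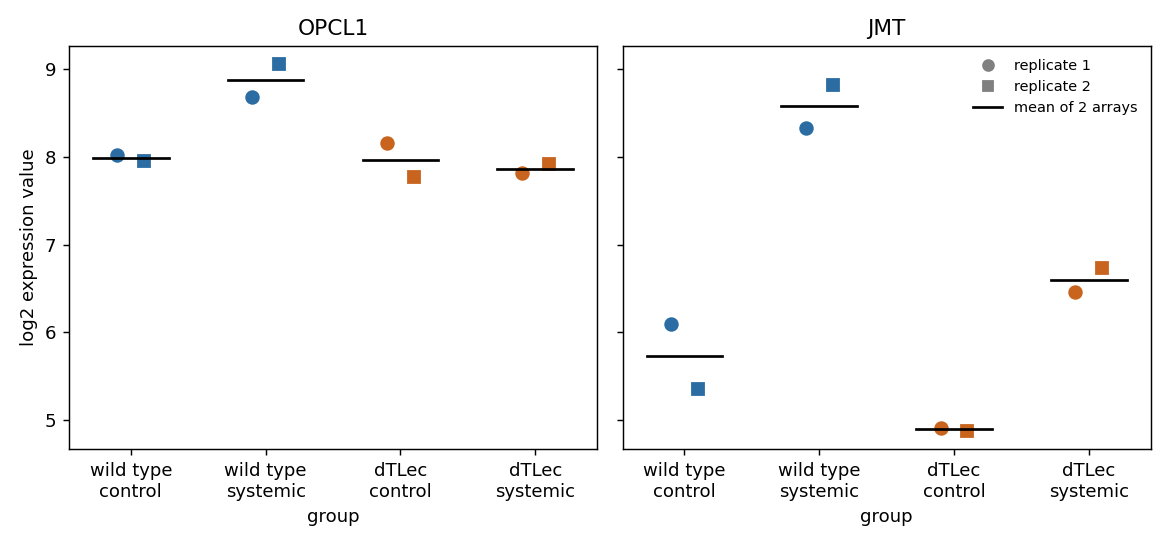
Log2 expression values of OPCL1 (left) and JMT (right) on each of the 8 arrays, by group; circles are replicate 1, squares replicate 2 and lines the mean of 2 arrays. For OPCL1 the wild-type systemic arrays (8.69 and 9.06) lie above the other 6, a split whose share over all probe sets was not counted. For JMT the group means run from 4.89 in dTLec control to 8.58 in wild-type systemic leaves.

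The first comparison asked whether the genes responded to wounding of other leaves in the wild type. Both rose. OPCL1 was 1.84-fold higher in systemic than in control leaves, a log2 difference of 0.88 ± 0.16 (SE, n = 2 per group) with a 95% confidence interval from 0.51 to 1.26. JMT was 7.24-fold higher, by 2.86 ± 0.25 on the log2 scale, with an interval from 2.26 to 3.45. The adjusted p was 0.0149 for OPCL1 and 0.00159 for JMT (limma's moderated test, Benjamini-Hochberg over all probe sets). Ranked from the largest increase, JMT was number 52 and OPCL1 number 595 of the 22746 probe sets. JMT had come to notice in earlier work by a genotype difference on the systemic arrays, some of which enter here. Its values are thus not an independent test.

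Rises of this kind were common in the wild type. Of all probe sets, 5.91% passed the adjusted threshold of 0.05 as higher in systemic leaves and 6.03% as lower, and 22.4% had both systemic arrays above both control arrays. After cyclic loess normalization the split was 1563 higher and 1053 lower in place of 1344 and 1372. Without wild-type systemic replicate 2 the log2 difference of OPCL1 was 0.70 and no longer passed (limma adjusted p 0.0887). JMT passed without any single array, with adjusted p between 0.000447 and 0.0152 (limma).

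The same comparison in dTLec gave unlike values for the pair. OPCL1 had a log2 difference of −0.10 ± 0.16 (SE, n = 2 per group), with an interval from −0.48 to 0.28 and an adjusted p of 0.799 (limma), and its groups overlapped. JMT rose, by 1.71 ± 0.25 on the log2 scale as measured (3.27-fold), with an interval from 1.11 to 2.30 and an adjusted p of 0.044 (limma). Its dTLec control level of 4.89 is not known to be above background, so this rise may be understated. Here 0.488% of all probe sets passed as higher, and 21.7% had both systemic arrays above both control arrays. Ranked from the largest increase, JMT was number 69 of 22746.

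The call for JMT in dTLec was close to the threshold. The replicate means had been made equal in the deposited values, and a fit that allows for this, with the replicate number as a block, gave an adjusted p of 0.0755 (limma), with 0.0659% of probe sets past the threshold as higher. The adjusted p was 0.0727 without either wild-type systemic array, 0.17 and 0.28 without dTLec control replicate 1 and 2, and 0.0632 and 0.247 without dTLec systemic replicate 1 and 2 (limma). The log2 difference ranged from 1.57 to 1.84 over the fits that left out 1 array.

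The responses of the 2 genotypes were then compared directly. The dTLec response minus the wild-type response was −0.98 ± 0.23 (SE, n = 2 per group) for OPCL1, with an interval from −1.52 to −0.45, and −1.15 ± 0.36 for JMT, with an interval from −1.99 to −0.30. Neither passed over all probe sets, since the limma adjusted p was 0.213 for OPCL1 and 0.319 for JMT. Their unadjusted p of 0.00328 and 0.0146 came from the same limma fit, in which 11.2% of all probe sets had an unadjusted p under 0.05 and 0.0044% passed after adjustment. A different response in dTLec was therefore not shown for either gene at this number of arrays. The dTLec rise of JMT may be understated at its low control level of 4.89. Its difference of responses may then be overstated in size, which was not tested.

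**Figure D2:**
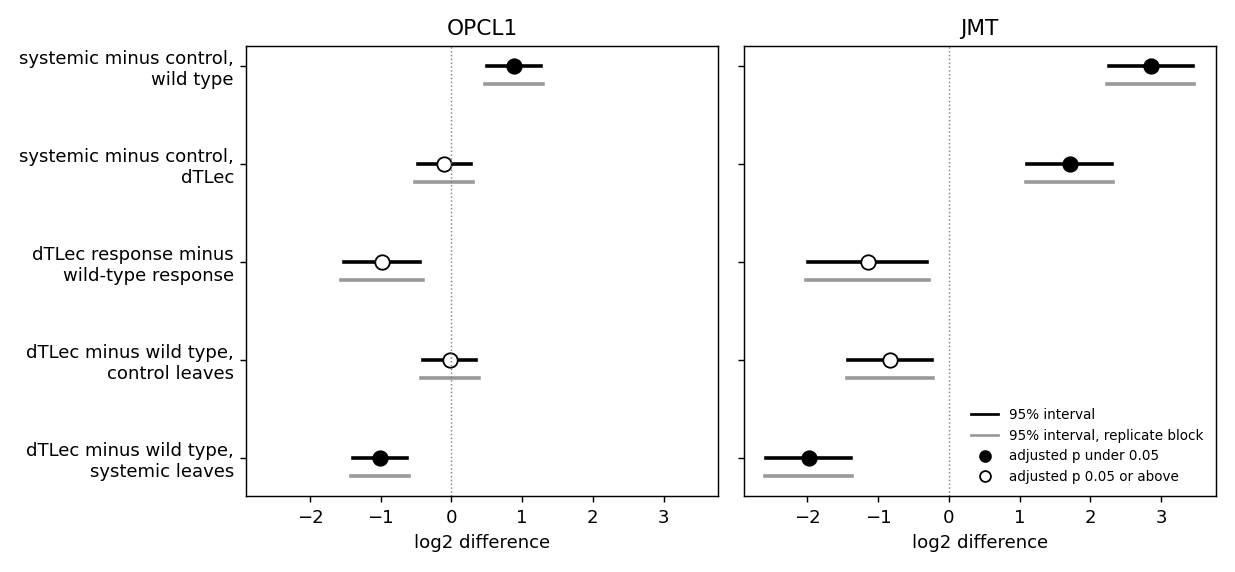
Log2 differences of OPCL1 (left) and JMT (right) in the 5 comparisons, with 95% intervals from the model without (black) and with (grey) the replicate block; filled points had an adjusted p under 0.05 in the model without the block. OPCL1 is above 0 in the wild-type response (0.88) and close to 0 in the dTLec response (−0.10), while JMT is above 0 in both (2.86 and 1.71).

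The next question was whether the genes differed between genotypes in control leaves. OPCL1 differed by −0.02 ± 0.16 (dTLec minus wild type, log2, SE, n = 2 per group), with an interval from −0.40 to 0.35 and an adjusted p of 0.979 (limma). The JMT values as measured differed by −0.83 ± 0.25 on the log2 scale, with an interval from −1.43 to −0.24, and the low dTLec control level may understate this difference too. Both dTLec arrays lay below both wild-type arrays, as at 17.3% of all probe sets. The adjusted p of JMT was 0.419 (limma), and 0% of probe sets passed in this comparison, with 9.25% at an unadjusted p under 0.05. The size of this difference hung on the wild-type controls: it was −0.47 when replicate 1 of the wild-type controls was left out and −1.20 when replicate 2 was.

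In systemic leaves both genes were lower in dTLec. The level of OPCL1 was 2.01-fold lower, and the log2 difference was −1.01 ± 0.16 (SE, n = 2 per group), with an interval from −1.39 to −0.63 and an adjusted p of 0.0231 (limma). For JMT the level was 3.95-fold lower and the log2 difference −1.98 ± 0.25, with an interval from −2.58 to −1.39 and an adjusted p of 0.0146 (limma). The dTLec arrays of both genes lay below the wild-type arrays, as at 24% of all probe sets, while 3.27% passed as lower and 2.26% as higher. Ranked from the largest decrease, JMT was number 18 and OPCL1 number 181 of 22746. JMT had come to notice by this difference in earlier work on these arrays. Its rank, interval and adjusted p in this comparison are therefore descriptions and not an independent test. The same holds for JMT in the wild-type response, the dTLec response and the difference of responses, which use systemic arrays of this comparison. For both genes this comparison shares the wild-type systemic arrays with the wild-type response, and its values are therefore not independent of that response.

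With the replicate block the adjusted p in systemic leaves was 0.0538 for OPCL1 and 0.0302 for JMT (limma), with 0.659% of probe sets past the threshold as lower. Without 1 of the arrays compared, the adjusted p of OPCL1 was 0.054 and 0.143 (wild-type systemic replicate 1 and 2) or 0.112 and 0.0666 (dTLec systemic replicate 1 and 2), while its log2 difference lay between −1.19 and −0.82. That of JMT was 0.0501 and 0.112 without wild-type systemic replicate 1 and 2 and 0.0825 without dTLec systemic replicate 1 (limma), with a log2 difference between −2.23 and −1.74.

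The pathway around the pair was described with a list of 70 jasmonate genes, of which 14 had a probe set annotated to them alone, so the counts speak for these 14. The 14 include OPCL1 and JMT, and the list was chosen with earlier results of these data known. Its counts and medians are thus descriptions, and enrichment was not tested. In the wild type 7 of the 14 were higher in systemic leaves and 0 lower (limma adjusted p under 0.05), against 5.91% and 6.03% of all probe sets, and their median log2 difference was 0.46 against −0.02 over all probe sets. All 7 act in the peroxisomal steps, in methylation or in turnover. Besides OPCL1 and JMT they were AIM1, which encodes a beta-oxidation enzyme of the peroxisome, and the jasmonate oxidases JOX1 to JOX4. No other listed gene of those steps was measured by name (2 of 10 peroxisomal, 1 of 4 of modification and 4 of 9 of turnover). Which steps held calls thus depended on which genes were measured. Leaving out probe sets with a mean under 5 dropped JOX1 and left a count of 6. The count was 6 with the replicate block, which called 3.92% of all probe sets higher, and 4 without wild-type systemic replicate 2.

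Of the early steps, 1 of 6 listed genes of fatty acid supply and release and 1 of 10 of the plastid steps were measured by name. DGL, encoding a lipase-like protein of the plastid, had a wild-type log2 difference of −0.01. Its group means of 4.42 to 4.58 lay near the lower end of the scale. The list gene AT1G70480 had a difference of 0.10. These values do not speak for the early steps as a whole. AIM1, which acts after OPCL1, rose by 0.53 ± 0.10 (log2, SE, n = 2 per group, limma adjusted p 0.0179), from 9.32 ± 0.18 (SD) to 9.86 ± 0.08. Leaving out replicate 1 or 2 of the wild-type systemic leaves gave an adjusted p of 0.0562 or 0.122, and leaving out replicate 2 of the wild-type controls gave 0.0701 (limma). In dTLec AIM1 went from 9.42 ± 0.05 to 9.72 ± 0.05, a log2 difference of 0.30 that did not pass (adjusted p 0.21, limma), and its level in systemic leaves differed between genotypes by −0.13 (adjusted p 0.482, limma). The AIM1 value in dTLec was thus above 0 and that of OPCL1 (−0.10) below it, though neither passed. Without dTLec control replicate 1 the OPCL1 value was 0.097, so its sign is not settled. Whether AIM1 and OPCL1 differed was not tested.

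Of the turnover genes that oxidise jasmonic acid, JOX1 had group means between 4.15 and 4.70, near the lower end of the scale. The wild-type log2 differences of these genes were 4.76 for AT2G38240 (JOX4), 4.15 for JRG21, which is JOX3, 3.44 for AT5G05600 (JOX2) and 0.55 for AT3G11180 (JOX1). In dTLec they were, in the same order, 3.30, 1.77, 2.52 and 0.08, with adjusted p between 0.0553 and 0.777 (limma). JMT was thus the 1 of the 14 that passed in dTLec, where 0.488% of all probe sets passed as higher. That count was 0 with the replicate block, which called 0.0659% of all probe sets higher. It was 3 after centring, with the filter on means under 5 or with the variance trend, and 4 with only the groups compared. It moved both up and down when single arrays were left out. JOX1 had an adjusted p of 0.0628 with the block in the wild type, and 0.0587 to 0.15 without wild-type control replicate 2 or either wild-type systemic array (limma).

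Of 16 listed perception genes 2 were measured by name, and of 9 listed response genes 3, so most were not seen. Those measured did not pass in the wild type. The transcription factor genes MYC3 and MYC4, whose proteins activate jasmonate-responsive genes, had log2 differences of −0.03 and −0.21. The antimicrobial peptide genes PDF1.2 and THI2.1 had 0.39 and 0.23, and ORA47, encoding an ERF transcription factor, had −0.11. Their adjusted p lay between 0.337 and 0.946 (limma). THI2.1 had group means between 4.86 and 5.08, near the lower end of the scale. No gene of the methyl ester hydrolysis list, whose enzymes reverse the JMT reaction, was measured by name (0 of 6).

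In systemic leaves 3 of the 14 were lower in dTLec and 0 higher (limma adjusted p under 0.05), against 3.27% and 2.26% of all probe sets, namely OPCL1, JMT and JRG21. This count is a description too, since JMT had come to notice by this difference. The median log2 difference of the 14 was −0.29 against 0.03 over all probe sets. JRG21 had −2.55 ± 0.40 (SE, n = 2 per group, limma adjusted p 0.0224). The count of 3 was 2 with the replicate block or without dTLec systemic replicate 2, 5 without either wild-type control array, and 0 without either wild-type systemic array or dTLec systemic replicate 1.

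**Figure D3:**
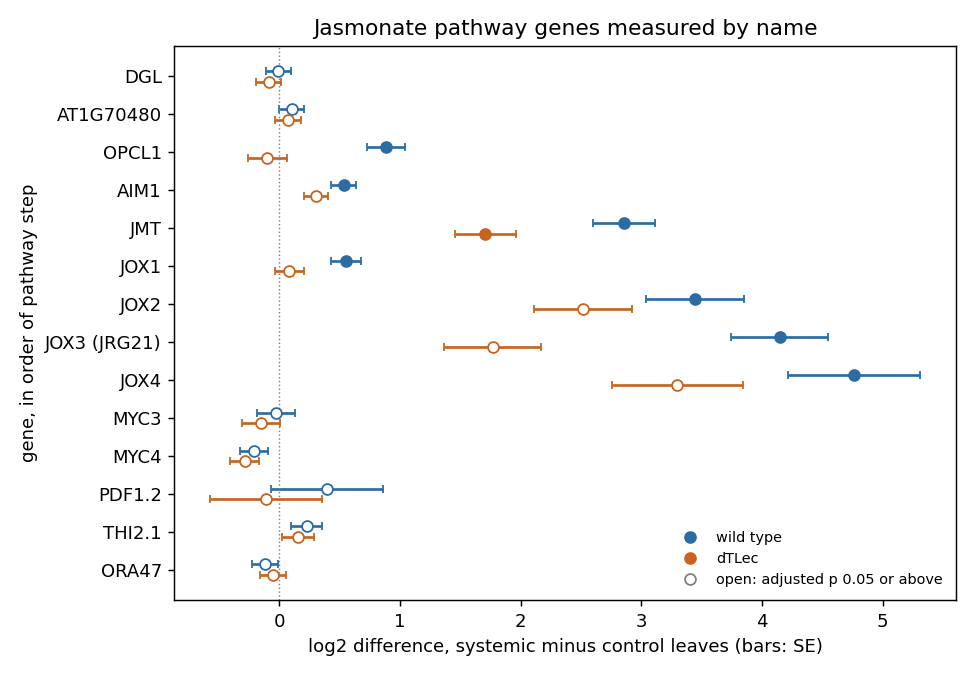
Log2 difference between systemic and control leaves for the 14 jasmonate genes measured by name, in wild type (blue) and dTLec (orange), with SE from the model; filled points had an adjusted p under 0.05. The 7 filled wild-type points run from 0.53 (AIM1) to 4.76 (JOX4), and JMT has the 1 filled dTLec point (1.71). Over all probe sets, 5.91% passed as higher in the wild type and 0.488% in dTLec.

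JMT belongs to the SABATH family of methyltransferases, which act on small acids. Of 24 listed SABATH genes 16 were measured by name, and JMT was the 1 that passed in the wild type or in dTLec. By comparison, 5.91% of all probe sets passed as higher in the wild type and 0.488% in dTLec. JMT was a chosen member, so this count is a description. The other 15 had wild-type log2 differences between −0.34 and 0.88, with adjusted p between 0.0926 and 0.981 (limma), and dTLec differences between −0.23 and 0.39. The median over all 16 was 0.02 in the wild type. The group means of 14 of the other 15 were all under 5.5, where differences may be understated.

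The value of 0.88 belonged to BSMT1, whose enzyme methylates salicylic and benzoic acid, and which is named after its values were seen. It went from 4.31 to 5.19 in the wild type (adjusted p 0.0926) and passed without wild-type systemic replicate 1, with 1.27 and an adjusted p of 0.0351 (limma).

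OPCL1 belongs to the family of 4-coumarate:CoA ligases (4CL) and their relatives, of which 8 of 13 listed genes were measured by name. The 8 include OPCL1, and the list was chosen with earlier results of these data known, so its counts are descriptions. In the wild type 3 of the 8 rose and 0 fell (limma adjusted p under 0.05), against 5.91% and 6.03% of all probe sets, with a median log2 difference of 0.18 against −0.02 over all probe sets. They were OPCL1, 4CL8 and AT5G63380. 4CL8 rose by 0.66 ± 0.08 (SE, n = 2 per group, limma adjusted p 0.0031), from 4.39 ± 0.05 (SD) to 5.05 ± 0.05, and AT5G63380 by 0.36 ± 0.08 (adjusted p 0.031), from 7.55 ± 0.06 to 7.91 ± 0.06. The AT5G63380 call was lost with the replicate block (adjusted p 0.101), the variance trend (0.0567), only the groups compared (0.0729) and without any 1 of the 4 wild-type arrays (0.0741 to 0.166, limma). In dTLec the log2 difference was 0.02 for 4CL8 (adjusted p 0.935) and 0.06 for AT5G63380 (adjusted p 0.777, limma).

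The same 3 ligase genes were the ones lower in dTLec in systemic leaves, against 3.27% of all probe sets, where 4CL8 differed by −0.48 (limma adjusted p 0.0224) and AT5G63380 by −0.55 (adjusted p 0.0196). Both comparisons use the wild-type systemic arrays. With the replicate block 2 ligases passed in the wild-type response and 0 in systemic leaves. The wild-type count was 1 when wild-type systemic replicate 2 was left out, and 2 when replicate 1 or either wild-type control array was. The count in systemic leaves was 0 without any 1 of the 4 systemic arrays. The other 5 ligases had wild-type differences between −0.16 and 0.21, and AT4G05160 among them, named after its values were seen, had means of 9.05 and 9.06. Of the 7 ligases besides OPCL1, 4 had all group means under 5.5, 4CL8 among them, where differences may be understated. Leaving out probe sets with a mean under 5 dropped 4CL8, and 2 ligases then passed in the wild-type response and 2 in systemic leaves.

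**Figure D4:**
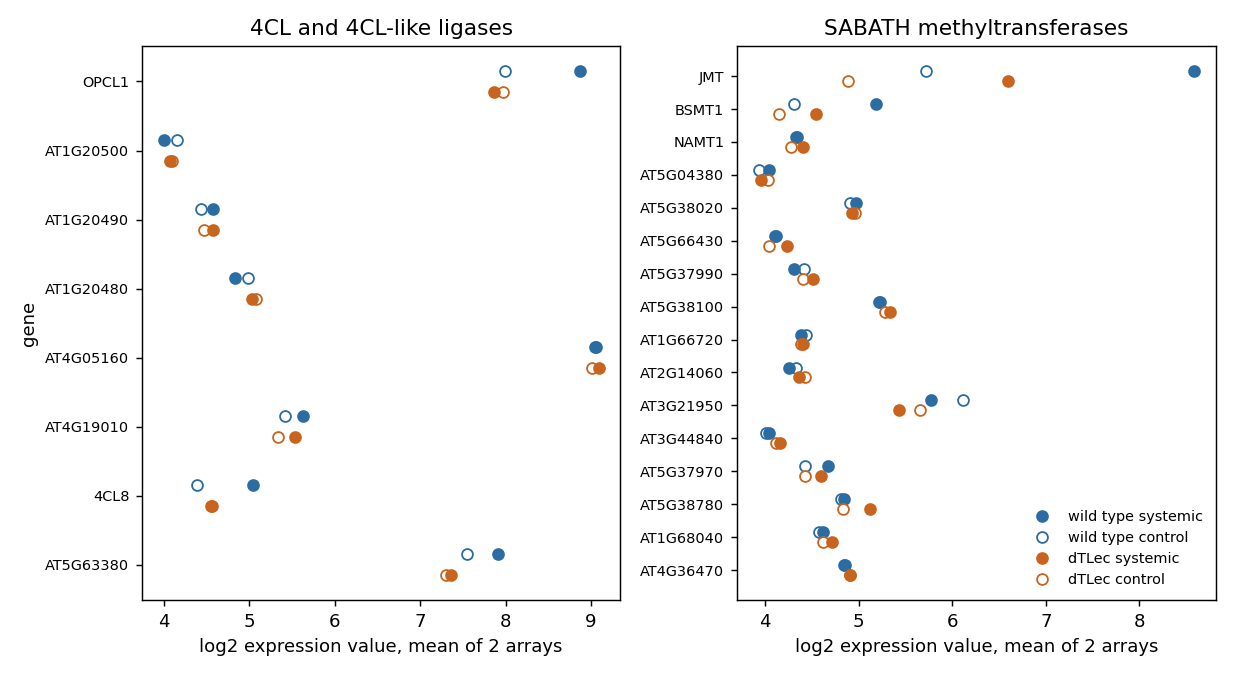
Mean log2 expression values in the 4 groups for the measured 4CL and 4CL-like ligase genes (left) and SABATH methyltransferase genes (right); blue is wild type, orange dTLec, open points control and filled points systemic leaves. Levels of different probe sets cannot be set against each other. OPCL1 (8.87) and JMT (8.58) have their highest mean in wild-type systemic leaves, and the other 15 SABATH genes have wild-type differences between −0.34 and 0.88.

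The genes whose pattern was most like that of each member were found over the 8 arrays by the root mean square difference of the log2 values, each centred on its own mean. Among 13512 other probe sets with 1 gene, the 5 nearest to OPCL1 were HL, encoding a HAL2-like phosphatase, NAI1, encoding a bHLH transcription factor of endoplasmic reticulum bodies, AT1G64700, AT5G14700 and AT1G69580. Their distances lay between 0.10 and 0.12 log2 units, against a median of 0.46 over all those probe sets. Their wild-type differences lay between 0.69 and 0.95 and their dTLec differences between −0.06 and 0.21. These values follow from the choice of the genes and are given without a test.

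The 5 nearest to JMT were BGLU40, encoding a beta-glucosidase, AT2G34930, AT1G52000, AT2G32190 and AT4G17470. Their distances of 0.19 to 0.37 log2 units compare with a median of 1.41 over the same probe sets. Their wild-type differences lay between 2.32 and 2.72 and their dTLec differences between 0.86 and 2.00. BGLU40, the nearest, had 2.52 and 1.91, and differed between genotypes by −0.94 in control and −1.55 in systemic leaves. The values of these genes too follow from their choice and are given without a test. The distance between OPCL1 and JMT themselves was 1.06 log2 units.

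**Figure D5:**
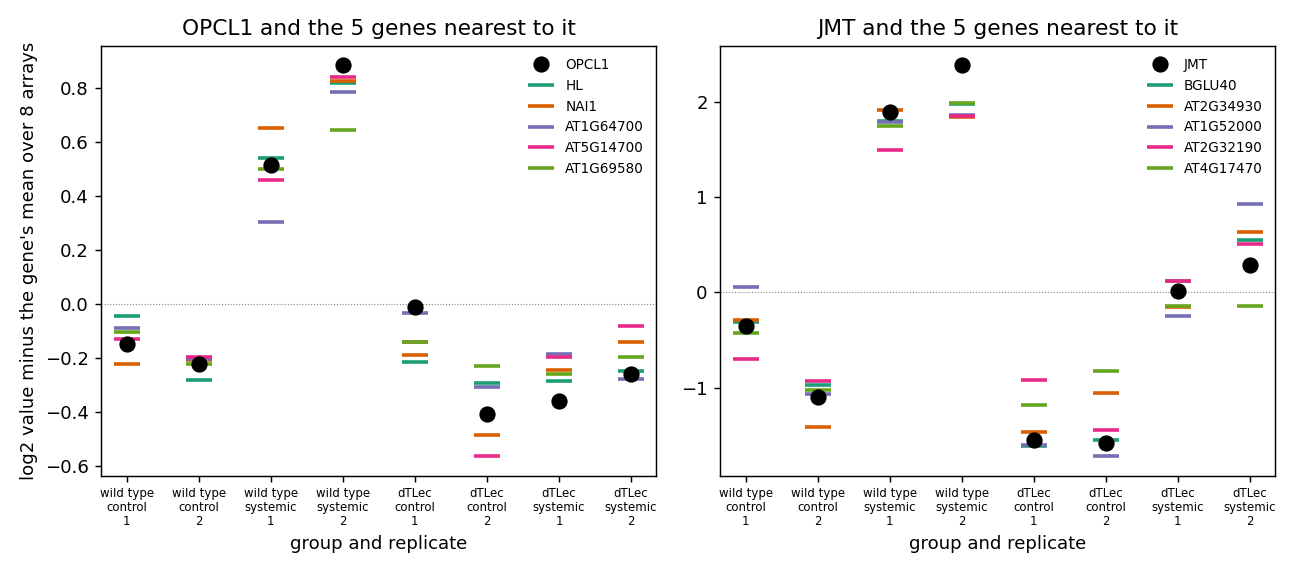
Log2 values of OPCL1 (left) and JMT (right; black points) and of the 5 genes nearest to each (coloured bars) on the 8 arrays, each minus the gene's mean over the arrays. The genes nearest to OPCL1 are high on the 2 wild-type systemic arrays alone. Those nearest to JMT have intermediate values on the dTLec systemic arrays, apart from AT1G52000. Its value on dTLec systemic replicate 1 (−0.24) lies below that on wild-type control replicate 1 (0.055).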

How the data were processed

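The authors deposited log2 expression values per probe set from Affymetrix ATH1 arrays, with 10 µg of total RNA labelled for each, per the labels' protocols. RMA and Partek are named per the submitters' processing notes, without versions or settings, which the sources used here do not give. The log2 scale was read from the values. The 22810 probe sets included 64 array controls, which were dropped; 13513 of the rest had 1 gene in the platform annotation, 503 several and 8730 none, and names were updated from the TAIR10.1 gene table (13436 matched).

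In R 4.3.3, limma 3.58.1 (lmFit, eBayes) fitted the 4 group means over the 8 arrays, with Benjamini-Hochberg adjustment over 22746 probe sets and a threshold of 0.05. The residual degrees of freedom were 4 and the prior ones 3.12. At every probe set the means of the replicate 1 and replicate 2 arrays agreed within 7.5e-05, so that difference had been removed before deposit and p-values without the block are too small. The alternatives were the replicate block, centring, cyclic loess, a filter on means under 5, a variance trend, only the compared groups, and each array left out. Members and lists were chosen with earlier results of these data known. Where a gene had more than 1 probe set, the one of highest mean was used. Genes named were the members, list genes that passed, lists with at most 5 measured genes, and the 5 nearest in pattern. No sequences were used here. Arrays have no read depth, and their number limits the precision.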

Additional observations from a re-analysis of the deposited data

How the results depend on the processing

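Centring, cyclic loess, the filter on dim probe sets and the variance trend moved no call for OPCL1 or JMT in the 5 comparisons, and neither did fitting only the groups compared. The replicate block ended 2 calls, JMT in the dTLec response (1.71, adjusted p 0.0755) and OPCL1 in systemic leaves (−1.01, adjusted p 0.0538), and no other call of the members. The labels do not say that replicate numbers pair the samples. With the block, 1596 probe sets passed in place of 2716 in the wild type, 16 in place of 152 in dTLec, 0 in place of 1 for the difference of responses and 213 in place of 1257 in systemic leaves. For the difference of responses, 8 passed after centring (2 higher and 6 lower), 5 with the filter and 6 with the trend; fitting only the groups compared gave 324 in dTLec. Of the 14 jasmonate genes, 3 in place of 1 passed in dTLec after centring, with the filter or with the trend, and 4 with only the groups compared, which also gave 5 in place of 3 in systemic leaves. In the wild type 6 in place of 7 passed with the filter or with only the groups compared. The cause was not tested.

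With any single array left out, log2 differences of OPCL1 lay between 0.70 and 1.07 in the wild type, −0.30 and 0.10 in dTLec, −1.18 and −0.79 for the difference of responses, −0.22 and 0.17 in control and −1.19 and −0.82 in systemic leaves. Those of JMT lay between 2.49 and 3.22, 1.57 and 1.84, −1.52 and −0.78, −1.20 and −0.47, and −2.23 and −1.74. The counts of probe sets lay between 806 and 2582, 0 and 390, 0 and 5, 0 and 2, and 3 and 1567.

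No value that had passed the threshold changed sign. Values that had not passed and did change sign were those of OPCL1 in dTLec and in control leaves (ranges above) and, in the wild type, of DGL (−0.071 to 0.054 with an array left out, 0.011 after centring), MYC3 (−0.24 to 0.18, 0.032 after cyclic loess), PDF1.2 (−0.17 to 0.96) and AT4G05160 (−0.096 to 0.11). In dTLec they were JOX1 (AT3G11180, −0.023 to 0.19), 4CL8 (−0.025 to 0.058), HL (−0.050 to 0.027, 0.036 after cyclic loess), NAI1 (−0.0033 to 0.29), AT1G64700 (−0.20 to 0.077) and AT1G69580 (−0.087 to 0.0030).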

Other observations

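The 3 protein-coding genes on either side of OPCL1 in the TAIR10.1 gene table were all measured by name. The 3 on one side, AT1G20500, AT1G20490 and AT1G20480, are 4CL-like genes themselves and had wild-type log2 differences of −0.15, 0.14 and −0.16, with adjusted p between 0.314 and 0.395 (limma). Their group means lay between 4.00 and 5.08, where differences may be understated. On the other side AT1G20540 fell by 0.37 (limma adjusted p 0.0312), and AT1G20520 and AT1G20530 had 0.08 and 0.02.

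Of the 6 genes nearest to JMT, 3 were measured by name. AT1G19650, next to JMT, rose by 0.94 in the wild type (limma adjusted p 0.00231), had 0.28 in dTLec and was lower in dTLec in systemic leaves by −0.75 (adjusted p 0.0146). On the other side AT1G19620 had a wild-type difference of 0.15 and PDF1.4 of 0.43, with adjusted p of 0.522 and 0.427 (limma). These neighbours were looked up after the values of OPCL1 and JMT were known, and they were not run under the alternatives.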
